A study of Mus musculus with 6 samples.

Results

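Marginal zone B cells, a splenic B cell subset at the border of the white pulp, were profiled here for 10 genes of transforming growth factor β (TGF-β) storage, reception and signalling. The genes were taken by name, as Ltbp4, Fstl1, Tgfb1, Tgfbr1, Tgfbr2, Smad2, Smad3, Smad4, Smad7 and Ski, which are 10 of the 14864 genes in the table. The set was chosen by the rise of Ltbp4 and Fstl1 from WT to the knockout libraries in this same contrast, so for these 2 genes the values are a description and no test is given. The other 8 were added for their place in the pathway and are tested below. All 10 had a row in the table and all 10 passed the filter on low values, as did 14855 genes in all.

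RNA came from cells sorted out of spleens of C57BL/6 mice aged 8 weeks. The 3 WT libraries are labelled wild type and the 3 cKO libraries are labelled CK2α-cKO, a conditional knockout of a catalytic chain of the kinase CK2. The sources used here do not give the Cre line, the sort gates or how many mice each library came from. A p-value therefore reflects how far the libraries of a group spread, and some of that spread may be technical. Recovered reads per library ran from 18778776 to 23503756, and values are given in normalised reads, the unit of the deposited table. The targeted gene Csnk2a1 was not lower in the knockout, at 3957 ± 105 in WT against 4045 ± 87.6 in cKO (mean ± SD of 3 libraries, as throughout, log2 difference 0.03, limma adjusted p = 0.734). The sources used here do not give the deleted exons, and a total per gene may not show the loss of single exons. The reason for the level of Csnk2a1 was not tested. Each direction is therefore that of the libraries labelled WT and cKO.

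The sorted identity was visible in all 6 libraries. Of 14 B cell and marginal zone markers, 14 were measured, and the complement receptor gene Cr2 gave 59691 to 76108 normalised reads. Of the 14, 4 rose and 0 fell by limma (1 was lower at an unadjusted p under 0.05, and 0 fell with edgeR or DESeq2). Among all genes 5.08% rose and 4.97% fell. The 4 were Cd1d1 (means 5313 in WT and 8722 in cKO), Plac8 (9312 and 13172), Cd9 (1472 and 2090.5) and Mzb1 (5641 and 6650). The level of these markers therefore differed between the groups. Of 12 T and NK cell markers, 4 were measured, and Cd3e, Cd3d and Cd3g were not among the genes analysed here. The summed level of the 4 was 58.2, 62.2 and 84.1 in WT and lower in each cKO library, at 49.0, 39.8 and 47.5. Of the 4, 0 were called by limma, edgeR or DESeq2, and Cd4 and Cd8a were lower at an unadjusted limma p under 0.05. Follicular B cell markers set cKO replicate 2 apart, as described with the receptors below. In bulk RNA, fewer cells of a type and less RNA per cell cannot be told apart.

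TGF-β is a secreted cytokine that is made as a latent complex. Its propeptide keeps the growth factor inactive, latent TGF-β binding proteins such as Ltbp4 tether the complex to the extracellular matrix, and integrins or proteases release it. The active ligand binds the type II receptor, which phosphorylates the type I receptor, and this in turn phosphorylates Smad2 and Smad3. These join Smad4 and enter the nucleus to regulate transcription, while Smad7 blocks the receptor and Ski represses Smad targets. In B cells the pathway is known for restraint of proliferation and for switching to IgA.

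The promoters of Ltbp4 and Fstl1 are shown because the set was chosen by the rise of these members. Each is the 250 bases before a start site, 5′ to 3′ on the gene's strand, from RefSeq on GRCm38.p6, with matches to the GC-rich Smad motif GGCGC (both strands) in capitals. Of the 3 Ltbp4 start sites in that table, the first and the second along the gene are given, and the third begins a few bases from the second. The windows lie at chr7:27337613-27337862 and chr7:27333664-27333913, both on the minus strand, and at chr16:37776805-37777054 on the plus strand.
Ltbp4 start site 1: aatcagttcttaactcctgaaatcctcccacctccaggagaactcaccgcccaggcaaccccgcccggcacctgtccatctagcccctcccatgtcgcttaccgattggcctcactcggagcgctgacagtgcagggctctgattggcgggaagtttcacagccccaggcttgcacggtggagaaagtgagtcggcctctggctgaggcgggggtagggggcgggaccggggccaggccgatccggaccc
Ltbp4 start site 2: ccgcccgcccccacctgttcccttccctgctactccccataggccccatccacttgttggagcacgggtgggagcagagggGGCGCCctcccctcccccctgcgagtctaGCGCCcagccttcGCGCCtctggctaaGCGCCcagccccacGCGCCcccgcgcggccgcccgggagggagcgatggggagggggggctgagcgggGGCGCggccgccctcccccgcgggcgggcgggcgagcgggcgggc
Fstl1: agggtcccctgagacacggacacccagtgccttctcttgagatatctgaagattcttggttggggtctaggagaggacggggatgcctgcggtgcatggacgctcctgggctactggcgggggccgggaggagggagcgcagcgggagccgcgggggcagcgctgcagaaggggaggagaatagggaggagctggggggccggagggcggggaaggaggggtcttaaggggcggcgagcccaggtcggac

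The second Ltbp4 window held 7 matches to GGCGC, some of them overlapping, whereas the first Ltbp4 window and the Fstl1 window held 0. The core Smad element CAGAC and the AP-1 site TGANTCA, each searched on both strands, had 0 matches in all of these windows. Among 32851 promoters of the same length, 32.0% held GGCGC, 42.2% held CAGAC and 6.75% held TGANTCA. The 3 windows were 64.4%, 79.2% and 68.0% G or C, against a median of 52.4% over all promoters. A match, or its absence, says only which letters stand in the window, and the counts do not show which start site the cells used.

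Ltbp4 (ENSMUSG00000040488), the matrix protein that anchors latent TGF-β, was higher in cKO, from few reads in WT. It stood at 26.4, 19.0 and 15.7 normalised reads in WT replicates 1, 2 and 3, from 24, 18 and 16 recovered reads. In cKO replicates 1, 2 and 3 it stood at 129, 197 and 227, from 145, 208 and 220 reads. The lowest cKO library lay several times above the highest WT library. The means were 20.3 ± 5.48 and 184 ± 50.1, a ratio of 9.08 and a difference of 3.11 on the log2(value + 1) scale, which ran from 2.89 to 3.35 over the alternatives.

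Fstl1 (ENSMUSG00000022816) encodes a secreted glycoprotein of the follistatin and SPARC families that can bind ligands of the TGF-β superfamily. It was read at 13.2, 37.9 and 16.6 normalised reads in WT replicates 1, 2 and 3 and at 126, 177 and 168 in cKO replicates 1, 2 and 3. WT replicate 2 was the highest of its group, with 36 recovered reads against 12 and 17. The groups again lay far apart, with means of 22.6 ± 13.4 and 157 ± 27.5, a ratio of 6.95 and a log2 difference of 2.87, or 3.31 without WT replicate 2. That library also had the highest summed erythroid markers, 11103 against 682 to 5023 in the others, and the highest summed macrophage markers, 4110 against 1887 to 3700. The part of these cells in its Fstl1 value was not tested.

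**Figure D1:**
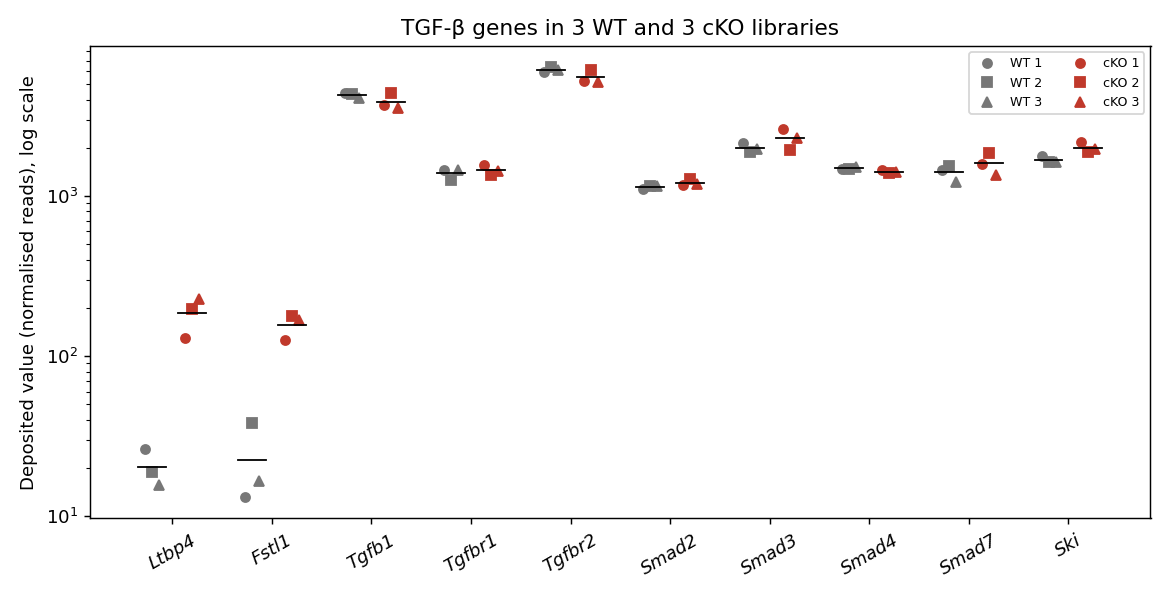
Deposited values (normalised reads, log scale) of the 10 genes in each of 3 WT (grey) and 3 cKO (red) libraries, with black bars for group means and marker shapes for replicates 1, 2 and 3. Ltbp4 and Fstl1 sit below 40 in WT and above 120 in cKO, while the WT and cKO points of the other 8 lie close together.

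Ltbp4 and Fstl1 are widely expressed by fibroblasts and other stromal cells, so the markers of those cells were read beside them. Of 18 fibroblast and reticular stroma markers, 3 were measured, and Col1a1, Col1a2, Pdgfra, Pdgfrb and Dcn were among the 15 not analysed here. The summed level of the 3 was 60.4, 78.0 and 79.2 in WT and 58.8, 57.8 and 64.0 in cKO. Col3a1, a fibrillar collagen, gave 19.8, 24.2 and 31.3 in WT and 21.4, 17.1 and 21.7 in cKO. The collagens did not separate the groups, and the part of stromal cells in the Ltbp4 and Fstl1 values was not tested.

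The summed endothelial and platelet markers overlapped between the groups. Of 14 endothelial markers, 6 were measured, with a summed level of 4453 to 5284 in WT and 4372 to 5413 in cKO, nearly all of it Pecam1, which lymphocytes also express. Cdh5, the endothelial cadherin, gave 46.1, 44.3 and 65.5 in WT and 60.6, 67.3 and 71.2 in cKO, a log2 difference that did not pass (adjusted p = 0.294). Of 10 megakaryocyte and platelet markers, 4 were measured, summing to 189 to 217 in WT and 195 to 224 in cKO. Single platelet genes did separate the libraries, in opposite directions. Gp1ba was higher in each cKO library (means 111 and 142, adjusted p = 0.182) and Itga2b lower (59.4 and 36.7, adjusted p = 0.0897), and neither passed. Of the 13 genes measured in these 3 lists, 0 rose and 0 fell by limma, edgeR or DESeq2, and 1 was higher and 1 lower at an unadjusted limma p under 0.05.

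Of 8 dendritic cell markers, 6 were measured, and their summed level was 855, 907 and 772 in WT and 1059, 953 and 851 in cKO. Of the 6, 1 rose, Zbtb46, a transcription factor gene of conventional dendritic cells, which gave 58.2, 55.9 and 34.2 in WT and 103, 89.1 and 90.8 in cKO (log2 difference 0.95 ± 0.23, limma adjusted p = 0.0252). The call was lost lacking WT replicate 3 (0.0797), cKO replicate 1 (0.0663) or cKO replicate 3 (0.074), and edgeR and DESeq2 kept it. The other dendritic markers measured did not pass and went both ways. Flt3 (means 152 in WT and 115 in cKO) and Itgax (107 and 98.2) were lower in cKO. Bst2 (511 and 616), Xcr1 (14.9 and 16.5) and Siglech (10.2 and 15.4) were higher. Each of these genes overlapped between the groups. Bst2 had a mean of 563 over the 6 libraries, against 900 for the summed level. The part of dendritic cells in the Ltbp4 and Fstl1 values was not tested.

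**Figure D2:**
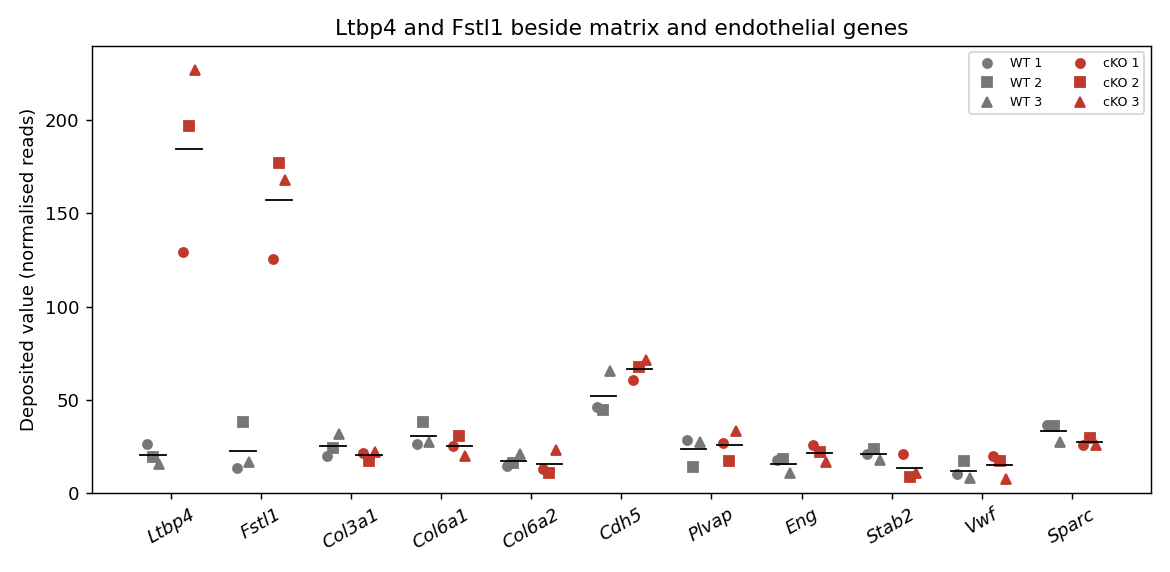
Deposited values (normalised reads, linear axis from 0) of Ltbp4, Fstl1, 3 collagen genes, 5 endothelial genes and Sparc in each library, with black bars for group means. Only Ltbp4 and Fstl1, of the genes drawn, lie above 100 in any library.

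The neighbouring genes on the chromosome did not pass the test. Shkbp1 and Numbl, the nearest tested genes on either side of Ltbp4 in GENCODE M21, gave log2 differences of 0.0031 and 0.14 (limma adjusted p = 0.982 and 0.708). Ndufb4 and Lrrc58, which flank Fstl1, gave 0.04 and 0.0053 (0.87 and 0.976). The sign of Shkbp1 and of Lrrc58 turned on a rescaling that left immunoglobulin genes out (-0.0115 and -0.0093). No tested gene overlapped any of the 10 members in that annotation.

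Several genes varied nearly in parallel over the 6 libraries. Among 9508 candidates whose mean reached 100 in WT or in cKO, Cmc2, Bcr, Pld2, Eml2 and Lurap1 had the highest Pearson correlation with Ltbp4, between 0.9898 and 0.9968. For Fstl1 they were Kif13a, Rpl29, Ube2l3, Cs and Thap11, between 0.9932 and 0.9988. These 6 points share the split between WT and cKO, so a high value largely describes that split. The size of the differences was far smaller. Pld2, which hydrolyses phosphatidylcholine, went from 50.2 ± 7.04 to 111 ± 17.0, and Kif13a, a kinesin motor, from 398 ± 61.9 to 665 ± 43.0.

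Per kilobase of exon, the 2 genes remained far below the other members of the set. The mean over the 6 libraries was 806 normalised reads per kilobase for Tgfb1, 712 for Tgfbr2, 391.9 for Smad4, 388 for Smad3, 332 for Smad7, 331 for Ski, 217 for Tgfbr1 and 134 for Smad2. It was 18.3 for Fstl1 and 15.8 for Ltbp4. The ranges over libraries overlapped between Tgfb1 and Tgfbr2, between neighbours from Smad4 down to Ski, and between Fstl1 and Ltbp4, and they did not overlap at the steps from Tgfbr2 to Smad4, from Ski to Tgfbr1, from Tgfbr1 to Smad2 or from Smad2 to Fstl1. In cKO, Ltbp4 stood at 3.73% and Fstl1 at 4.18% of the level of Tgfb1 per kilobase.

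Of the 8 members tested, 1 was called, Ski, which is 12.5%, against 10.1% of all genes tested. The WT and cKO values did not overlap for 3 of the 8 (Smad2, Smad4 and Ski), or 37.5%, against 31.6% of all genes. Both shares were near the background. At an unadjusted p under 0.05 limma gave 2 of the 8, Tgfbr2 and Ski.

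Tgfb1 (ENSMUSG00000002603), the ligand, stood above 91.7% of the genes tested in level per kilobase. It was read at 4401, 4322 and 4098 normalised reads in WT and at 3672, 4382 and 3517 in cKO replicates 1, 2 and 3. Replicates 1 and 3 of cKO lay below each WT library, whereas cKO replicate 2 lay within the WT range. The means were 4274 ± 157 and 3857 ± 461, and the log2 difference of -0.15 ± 0.08 (SE) did not pass (limma adjusted p = 0.23, ratio 0.899, 95% interval 0.798 to 1.01). Its nearest tested neighbours B9d2 and Ccdc97 gave log2 differences of 0.19 and 0.05, which did not pass either (0.244 and 0.65).

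Tgfbr2 (ENSMUSG00000032440), the type II receptor that binds the ligand, showed the same order of libraries within cKO. It gave 5982, 6348 and 6113 in WT and 5257, 6125 and 5152 in cKO, so that cKO replicate 2 again lay within the WT range. The log2 difference of -0.16 ± 0.07 did not pass (adjusted p = 0.16, ratio 0.894, 95% interval 0.805 to 0.993). Tgfbr1 (ENSMUSG00000007613), the type I receptor kinase, gave 1455, 1260 and 1443 in WT and 1560, 1359 and 1426 in cKO. Its groups overlapped and its log2 difference of 0.06 ± 0.08 did not pass (adjusted p = 0.637), turning to -0.0029 without WT replicate 2.

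Smad3 (ENSMUSG00000032402), a receptor-activated Smad that binds DNA, gave 2140, 1893 and 1974 in WT and 2637, 1938 and 2315 in cKO. Replicates 1 and 3 of cKO lay above each WT library and cKO replicate 2 did not. The log2 difference was 0.19 ± 0.10 (adjusted p = 0.243, ratio 1.14, 95% interval 0.982 to 1.32).

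**Figure D3:**
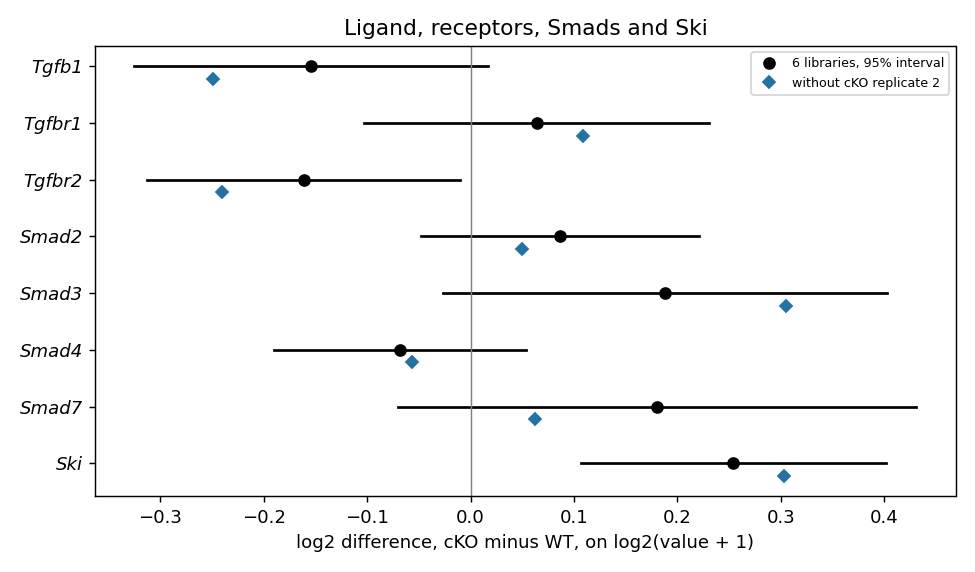
Log2 difference (cKO minus WT, on log2(value + 1)) of the 8 tested members, with black points and bars for the estimate and 95% interval from all 6 libraries and blue diamonds for the estimate without cKO replicate 2. The interval of Ski lies above 0 and that of Tgfbr2 just below 0, and the estimates for Tgfb1, Tgfbr2 and Smad3 lie further from 0 without that library.

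Tgfb1, Tgfbr2 and Smad3 all turned on cKO replicate 2. Without it, Tgfb1 gave -0.25 (limma adjusted p = 0.0212, range 0.0212 to 0.562 over the alternatives), Tgfbr2 -0.24 (0.0202, range 0.0202 to 0.416) and Smad3 0.30 (0.0274, range 0.0274 to 0.602), so that 4 of the 8 were called with Ski. Of the 14855 genes tested, 1730 were called in that fit, against 1494 with all 6 libraries. For Tgfb1, Tgfbr2 and Smad3, cKO replicate 2 lay within the WT range, so leaving it out had to widen their differences. Smad7 went the other way in that fit, from 0.18 to 0.06 (limma adjusted p = 0.742). The same library stood apart in follicular B cell markers, a list of 7 genes that includes Fcer2a and Ccr7. Their summed level was 54262, 59941 and 56826 in WT and 40373, 56553 and 40863 in cKO replicates 1, 2 and 3. Of the 7, 4 fell, Klf2 and Ccr7 among them, and 0 rose by limma, where 1 was higher at an unadjusted p under 0.05, 0 rose with edgeR and 1 rose with DESeq2. The part of follicular markers in the Tgfb1, Tgfbr2 and Smad3 values was not tested.

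**Figure D4:**
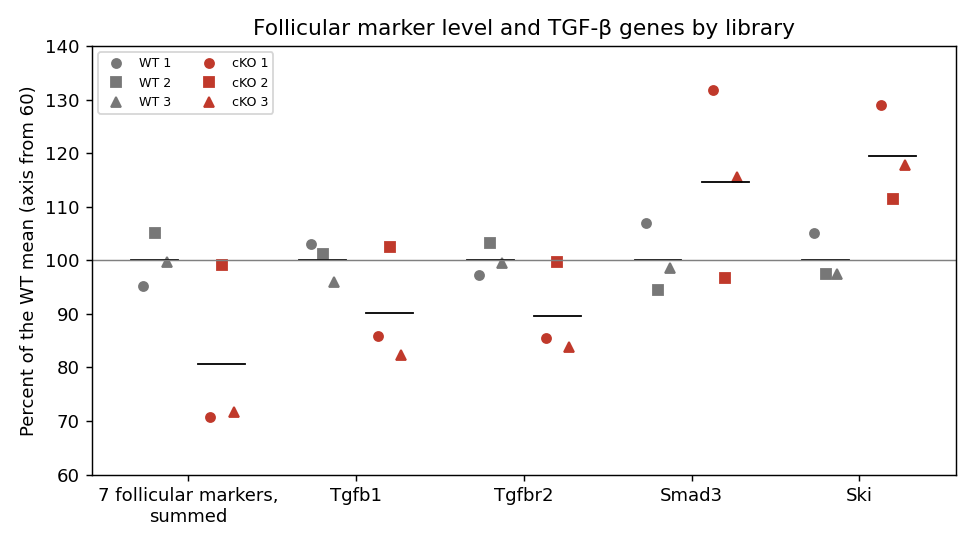
Summed level of 7 follicular B cell markers and levels of Tgfb1, Tgfbr2, Smad3 and Ski in each library, as a percentage of the WT mean, on an axis that starts at 60, with black bars for group means. The markers, Tgfb1 and Tgfbr2 are at 70.8% to 85.9% in cKO replicates 1 and 3 and at 99.2% to 102.5% in cKO replicate 2, where Smad3 is at 96.8% and Ski at 111.4%.

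Smad2, Smad4 and Smad7 did not pass the test. Smad2 (ENSMUSG00000024563), the second receptor-activated Smad, gave 1110, 1160 and 1148 in WT and 1177, 1273 and 1183 in cKO, groups that did not overlap but lay close (log2 difference 0.09 ± 0.06, adjusted p = 0.398). Smad4 (ENSMUSG00000024515), the shared partner, was the steadiest member and gave 1478, 1470 and 1519 in WT and 1459, 1398 and 1404 in cKO (-0.07 ± 0.06, adjusted p = 0.466, ratio 0.954, 95% interval 0.877 to 1.04). Its coefficient of variation was 1.77% in WT and 2.38% in cKO. Smad7 (ENSMUSG00000025880), the inhibitory Smad that TGF-β itself induces, gave 1453, 1539 and 1226 in WT and 1581, 1867 and 1351 in cKO (0.18 ± 0.11, adjusted p = 0.34, 95% interval of the ratio 0.952 to 1.35), a difference close in size to that of Smad3 with a wider error.

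Ski (ENSMUSG00000029050), a corepressor that binds Smad2, Smad3 and Smad4, rose. It gave 1765, 1635 and 1637 normalised reads in WT and 2166, 1871 and 1977 in cKO, with each cKO library above each WT library. The means were 1679 ± 74.5 and 2005 ± 150, a log2 difference of 0.25 ± 0.07 (limma adjusted p = 0.0383, ratio 1.19, 95% interval 1.08 to 1.32). Leaving out WT replicate 1, 2 or 3 ended the call (adjusted p = 0.0643, 0.0965 and 0.129), as did leaving out cKO replicate 1 or 3 (0.107 and 0.0987). Over all alternatives it ran from 0.0176 to 0.129.

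The wider pathway was read from 7 lists of TGF-β and BMP genes, without the 10 members. Some genes stood on several lists, and the totals count each gene once. Of 210 genes in all, 136 were tested, of which 6 rose and 13 fell. Among all genes 10.1% were called, with 5.08% rising and 4.97% falling. The median log2 difference was -0.058 over the 136 and -0.001 over all genes. Leaving out 1 library moved this count of 19 most for WT replicate 1 (6 calls), WT replicate 3 (10), cKO replicate 3 (9) and cKO replicate 2 (29). Of the 19 genes, 6 were called in every alternative, Pmepa1, Klf10, Ppp1r15a, Twsg1, Jun and Fos.

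**Figure D5:**
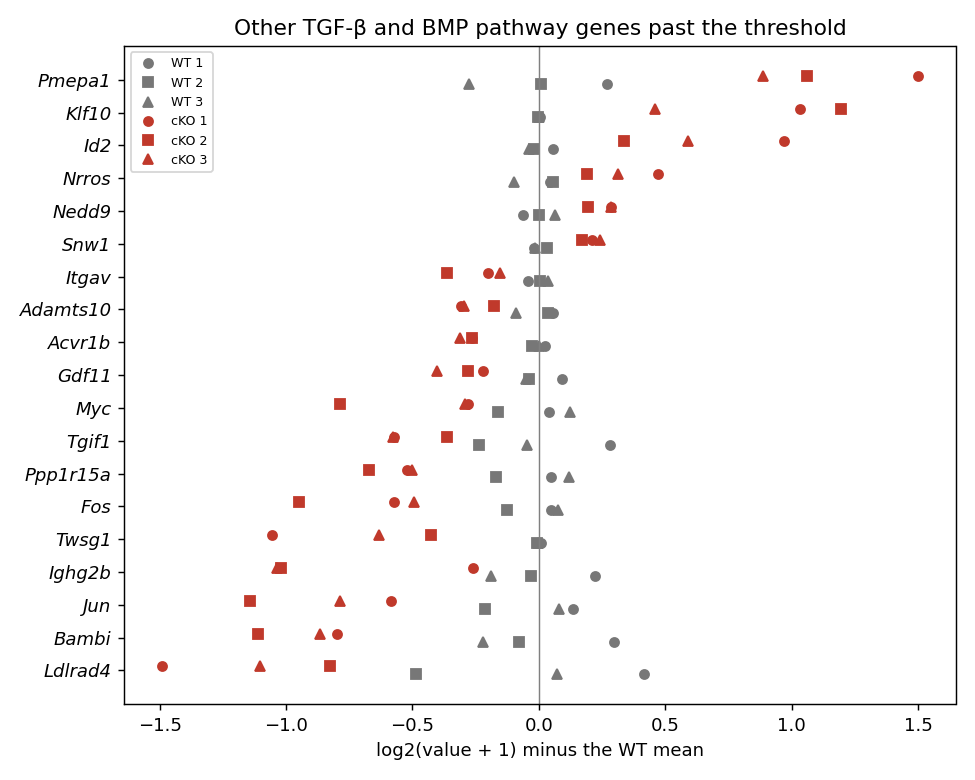
log2(value + 1) minus the WT mean for the 19 other pathway genes past the threshold, with WT libraries in grey and cKO libraries in red. Pmepa1 has the largest positive and Ldlrad4 the largest negative mean difference of the genes drawn, and red and grey points do not overlap in any row.

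Among the genes of ligand storage and activation, 1 of 17 tested rose and 2 fell, with a median of -0.106. That is 17.6% called, against 10.1% of all genes. At an unadjusted limma p under 0.05, 4 were higher and 3 lower. With edgeR 1 rose and 1 fell, and with DESeq2 2 rose and 2 fell. Nrros, a transmembrane protein that tethers latent TGF-β on the surface of myeloid cells, gave 6803, 6849 and 6164 normalised reads in WT and 9139, 7536 and 8199 in cKO (log2 difference 0.33 ± 0.07, limma adjusted p = 0.0226). Itgav, the αv integrin chain of receptors that release the ligand, fell from 1444 ± 39.7 to 1226 ± 92.1 (-0.24 ± 0.07, adjusted p = 0.049). Adamts10, a protease-like protein of fibrillin microfibrils, fell from 1936 ± 104 to 1617 ± 81.5 (-0.26 ± 0.06, adjusted p = 0.028). The proprotein convertase gene Furin, whose enzyme cleaves the TGF-β precursor, gave -0.23 and did not pass (0.0671), and the integrin chain gene Itgb1 gave 0.13 (0.244).

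Ltbp1, Ltbp2 and Ltbp3, the other latent TGF-β binding proteins, were not among the genes analysed here, nor were Tgfb2, Itgb6 or Itgb8. Nrros lost its call without WT replicates 1 (0.0594) and 3 (0.0998) or cKO replicates 1 (0.0552) and 3 (0.0705), each left out alone, and Adamts10 without WT replicates 1 (0.104) and 2 (0.077) or cKO replicates 1 (0.0732) and 3 (0.103). Itgav lost it without any of the 6 libraries (0.0697 to 0.155) and with edgeR on recovered reads (0.055).

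Of 8 receptors and coreceptors tested, 0 rose by limma, edgeR, DESeq2 or at an unadjusted p under 0.05. By each of these measures 2 fell, and the median was -0.102. That is 25.0% called by limma, against 10.1% of all genes. Acvr1b, the activin type I receptor that also signals through Smad2 and Smad3, gave 1172, 1131 and 1151 in WT and 959, 957 and 928 in cKO (-0.28 ± 0.06, adjusted p = 0.0165). Bambi, a pseudoreceptor without a kinase domain that dampens TGF-β and BMP signals, fell from 90.1 ± 17.5 to 46.7 ± 5.27 (-0.92 ± 0.20, adjusted p = 0.0202). Tgfbrap1 and Fkbp1a, which bind TGF-β receptors, gave -0.10 and -0.013 and did not pass (0.269 and 0.932). Acvr1b lost its call without WT replicate 1 (0.062), WT replicate 3 (0.0664) or cKO replicate 3 (0.0675), and Bambi without WT replicate 1 (0.0887) or cKO replicate 3 (0.0575).

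The Smads outside the set gave 0 calls of 3 tested by limma, edgeR, DESeq2 or at an unadjusted p under 0.05, with a median of -0.119. Smad5, a BMP-activated Smad, gave 1279 ± 44.9 and 1178 ± 40.5 (-0.12, adjusted p = 0.235) and Smad1, of the same class, 84.0 ± 20.8 and 66.0 ± 10.2 (-0.33, adjusted p = 0.361). The ligands and binding proteins of other family branches were mostly not among the genes analysed here. Of 7 tested, 2 fell and 0 rose by the same measures. That is 28.6% called by limma, against 10.1% of all genes. Twsg1, a secreted modulator of BMP ligands, gave 805, 795 and 798 in WT and 384, 594 and 516 in cKO (-0.70 ± 0.13, adjusted p = 0.0098), and the ligand gene Gdf11 fell from 1090 ± 59.7 to 885 ± 56.3 (-0.30 ± 0.07, adjusted p = 0.0258). Dip2a, reported as a receptor for Fstl1, gave 280 ± 18.5 and 241 ± 47.1 (adjusted p = 0.324), and Sparc, related in sequence to Fstl1, means of 33.2 and 27.0 (0.513). Gdf11 lost its call without WT replicate 1 (0.104), WT replicate 3 (0.07) or cKO replicate 3 (0.104).

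Of 49 Smad cofactors and regulators tested, 2 rose and 3 fell, with a median of -0.042, while DESeq2 gave 1 and 6. The limma calls make up 10.2%, near the 10.1% of all genes. Pmepa1, a membrane protein that TGF-β induces and that keeps Smad2 and Smad3 from the receptor, gave 404, 337 and 277 in WT and 949, 700 and 620 in cKO (1.15 ± 0.16, adjusted p = 0.0028). Its relative Ldlrad4, which has the same inhibitory role, went the other way, from 35.5 ± 11.0 to 15.3 ± 3.68 (-1.14 ± 0.32, adjusted p = 0.049). Snw1, a transcriptional coregulator, rose from 1230 ± 23.8 to 1421 ± 35.8 (0.21 ± 0.06, adjusted p = 0.0428).

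Tgif1, a homeobox corepressor of Smad2, gave 2667, 1860 and 2125 in WT and 1473, 1704 and 1471 in cKO (-0.50 ± 0.11, adjusted p = 0.0214). Ppp1r15a, a phosphatase subunit that Smad7 can recruit to the receptor and that stress induces, fell from 8647 ± 883 to 5834 ± 370 (-0.56 ± 0.08, adjusted p = 0.0024). The corepressor gene Ncor1 and the acetyltransferase gene Ep300 gave 0.04 and -0.21 and did not pass (0.713 and 0.0828). Robust moderation ended the call of Tgif1 (0.0566), as did leaving out WT replicate 1 (0.0586), WT replicate 3 (0.0666) or cKO replicate 3 (0.0775). Ldlrad4 lost its call without WT replicates 1 (0.184) and 3 (0.143) or cKO replicates 1 (0.122) and 3 (0.114). Snw1 lost it without any of the libraries other than cKO replicate 2 (0.0674 to 0.143), with DESeq2 (0.0599) and under both rescalings (0.0555 and 0.0526).

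Genes that TGF-β or BMP can induce or repress went both ways. Of 36 tested, 4 rose and 7 fell, with a median of -0.201. That is 30.6% called, against 10.1% of all genes. At an unadjusted limma p under 0.05, 5 were higher and 13 lower. With edgeR 4 rose and 8 fell, and with DESeq2 4 rose and 6 fell. The list was written with earlier results of these data known, so its share is a description. Besides Pmepa1, the increases were Klf10, an early TGF-β-induced zinc finger repressor, at 147, 146 and 147 in WT and 301, 337 and 202 in cKO (0.90 ± 0.17, adjusted p = 0.0112), Id2, an inhibitor of E proteins, from 600 ± 21.2 to 945 ± 211 (0.63 ± 0.13), and the scaffold gene Nedd9 from 8666 ± 386 to 10333 ± 376 (0.25 ± 0.06). The AP-1 subunit genes Jun and Fos fell from 14619 ± 1832 to 8234 ± 1558 (-0.84 ± 0.13) and from 8830 ± 656 to 5585 ± 899 (-0.67 ± 0.10). The other decreases were Myc (-0.45), the constant gene Ighg2b (-0.77), Bambi, Tgif1 and Ldlrad4. Pmepa1, Bambi, Tgif1 and Ldlrad4 were also counted in the lists above.

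Jun, Fos and Myc answer many stimuli, so their place on this list is not specific to TGF-β. Id1, Ccn1, Ccn2 and Col1a1, targets seen in many adherent cells, were not among the genes analysed here. Skil, a target and Ski relative, gave 2846 ± 132 and 2536 ± 264 (-0.17, adjusted p = 0.172), and Id3 542 ± 27.6 and 516 ± 74.6 (-0.08, 0.682), both named after their values were seen. The highly expressed Blk and Pou2af1 gave -0.07 and 0.11 (0.59 and 0.339). Id2 lost its call without WT replicate 1 (0.0511) or 3 (0.0639), Nedd9 without WT replicate 1 (0.0674), cKO replicate 1 (0.0544) or cKO replicate 3 (0.0848), Ighg2b without any library other than cKO replicate 1 (0.0583 to 0.132), and Myc without WT replicate 1 (0.142), WT replicate 3 (0.15) or cKO replicate 3 (0.0594). Robust moderation also ended the calls of Ighg2b (0.0663) and Myc (0.144), and DESeq2 that of Myc (0.0864).

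The arms of receptor signalling that bypass the Smads gave 0 calls of 23 genes tested by limma, against 10.1% of all genes. Their median was 0.031, and 5 were higher and 1 lower at an unadjusted limma p under 0.05. The small GTPase genes Rhoa and Cdc42 gave 7255 ± 386 and 8302 ± 365 (0.20 ± 0.06, adjusted p = 0.0592) and 9198 ± 439 and 10260 ± 333 (0.16 ± 0.06, adjusted p = 0.0989). DESeq2 called 1 of the 23, Rhoa (adjusted p = 0.0379), and edgeR 0.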

How the data were processed

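Sorted marginal zone B cells gave 3 WT and 3 cKO libraries, grouped by title. Per the submitters' processing notes, bcl2fastq 2.17, Trimmomatic 0.36, STAR 2.5.2b and the build mm9 were used. The sources used here do not name the counter, the annotation, the strand setting or how values were normalised. The deposited signal per gene is a read count that the authors divided by a factor for each library: values were whole multiples of 1 read within 0.02 in 100% of cases. Summed over libraries, no gene of the 14864 had fewer than 61 reads. Without strand, overlapping genes cannot be told apart.

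Symbols and exon lengths came from GENCODE M21, which left 40 identifiers unnamed. The test was limma 3.58.1 in R 4.3.3 (eBayes with a trend, two-sided) on log2(value + 1), genotype as the only term, for 14855 genes with a mean of at least 10, with Benjamini-Hochberg adjustment over all of them and a threshold of 0.05. The log2(value + 1) scale understates changes of low genes. Intervals are 95% limma intervals. The fit was tested on simulated data. Alternatives were edgeR 4.0.16 and DESeq2 1.42.0 on recovered reads, a replicate block, pseudocounts of 0.5 and 5, no filter or a minimum of 50, both rescalings, robust moderation and leaving out each library.

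The members and lists were chosen with earlier results of these data known. Named are the members, up to 4 called genes and the 2 most abundant uncalled genes per list, the 5 genes most like Ltbp4 and Fstl1, chromosomal neighbours and abundant markers. Id2, Ighg2b, Ldlrad4, Myc and Nedd9 were added to complete counts. Other marker genes were named after their values were seen.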

Additional observations from a re-analysis of the deposited data

How the results depend on the processing

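In 16 alternatives Ltbp4 stayed between 2.89 and 3.35 and Fstl1 between 2.58 and 3.31 on the log2 scale. Leaving out single libraries moved every count of calls. All genes called, 1494 with 6 libraries, ran from 497 to 1730, those that rose, 755, from 247 to 787, and those that fell, 739, from 221 to 943. The called members, 1 of 8, ran from 0 to 4, and the called pathway genes, 19, from 6 to 29. Fits without a library have fewer samples. Over single libraries left out, Tgfbr1 ran from -0.0029 to 0.1088, Fkbp1a from -0.0458 to 0.052 (0.0241 without WT replicate 2), Ndufb4 from -0.0615 to 0.1749, Lrrc58 from -0.0456 to 0.077 (-0.0403 and -0.0155 lacking WT replicate 2 and cKO replicate 1) and Shkbp1 from -0.023 to 0.0307 (-0.0187 lacking cKO replicate 2). Rescaled to exclude immunoglobulin genes and to equal upper quartiles, Lrrc58 gave -0.0093 and -0.005, and Shkbp1 -0.0115 and -0.0072. The cause was not tested.

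The labels share replicate numbers. The deviations of same-numbered libraries correlated at -0.0745, -0.02 and 0.147, and 2 of 6 libraries lay closest to their own number. These values show no clear sign of pairing, but with 3 libraries per group they cannot exclude it. With the replicate block 1551 genes, 21 pathway genes and 1 member were called, where Rhoa passed (0.0408) and Snw1 (0.0549) and Ldlrad4 (0.0775) did not. At 12 to 36 WT reads, the folds of Ltbp4 and Fstl1 rest on few counts.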
